A study of Mus musculus with 6 samples.

Results

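The miRNAs that mouse intestinal organoids held without added BMP4 are described here from the 3 PBS libraries of a series of 6 small RNA libraries. Organoids are epithelial cultures grown in a gel from crypts, the pockets of the gut lining that hold its stem cells. These came from mouse small intestine, grew in the IntestiCult Organoid Growth Medium for mouse cells and received PBS for 4 days. PBS is the buffer that served as the control of the study. The other 3 libraries came from organoids that received 0.5 µg/ml of the secreted signal BMP4 over 4 days, and their counts were not used here. All 199 rows of the count table were taken, each row a mature miRNA, in the 3 libraries whose treatment label is PBS. The rule that kept these rows was not given, so whether the BMP4 libraries had a part in it is not known. The labels give neither the strain, sex and age of the mice nor whether the libraries came from separate cultures, so the SDs below stand for differences among these 3 libraries and may be technical.

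The rows held 259811, 2248866 and 2128086 counts in PBS replicates 1, 2 and 3, so that replicate 1 was read far less deeply than the others. A row's share is its counts as a percent of the counts of all 199 rows in that library. A count of 3, taken as the floor of detection, was worth 0.00115% in replicate 1, 0.000133% in replicate 2 and 0.000141% in replicate 3. In replicate 1, 5 rows stood at 0 and 55 were under 10 counts, against 3 rows under 10 in replicate 2 and 5 in replicate 3, and no row was at 0 in those. The 95% Wilson intervals of the 20 highest shares were at most 0.290 percentage points wide in any library. These limits count the sampling of reads alone. PCR makes several reads of a molecule, so they can be too narrow for molecules.

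A miRNA is cut from a hairpin RNA, first by Drosha in the nucleus and then by Dicer in the cytoplasm, and the duplex that is left has an arm from the 5′ side (5p) and an arm from the 3′ side (3p). Argonaute keeps mostly a single arm, which then pairs with target mRNAs through its seed, bases 2 to 8, and lowers their translation and stability. miRNAs with the same seed can reach overlapping targets and are grouped as a family. miR-192, miR-194 and miR-215 are known as miRNAs of the gut epithelium.

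The mature sequences of the miRNAs that led the libraries are shown because their seeds define the groups that held most of the counts. They are given 5′ to 3′ from RefSeq on GRCm38.p6, with the seed in capitals.
miR-192-5p: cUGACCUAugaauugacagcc
miR-215-5p: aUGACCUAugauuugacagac
let-7f-5p: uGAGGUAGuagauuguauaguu
let-7g-5p: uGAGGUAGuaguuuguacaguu
let-7i-5p: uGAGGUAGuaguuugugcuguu
miR-200b-3p: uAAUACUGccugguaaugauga
miR-200c-3p: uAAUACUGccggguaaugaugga
miR-429-3p: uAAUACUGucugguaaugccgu
miR-200a-3p: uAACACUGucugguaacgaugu
miR-148a-3p: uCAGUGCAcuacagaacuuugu
miR-194-5p: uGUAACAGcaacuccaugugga
miR-7a-5p: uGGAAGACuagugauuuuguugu
A RefSeq sequence was matched for 177 of the 199 rows, which held 93.8% of the counts on average. The other 22 rows, among them miR-378a-3p, miR-30d-5p and miR-375-3p, entered the ranking but no seed group.

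The repertoire was led by a few miRNAs. miR-192-5p, a miRNA of gut, liver and kidney, was the most counted row in each library, with 17.1%, 17.2% and 17.4% of counts. miR-215-5p, with the same seed, followed with 12.8%, 15.5% and 15.97%, and was lower in replicate 1 than in the others. miR-200b-3p, which holds down the mesenchymal regulators Zeb1 and Zeb2, had 9.56%, 8.36% and 8.32%. The first 3 ranks were thus held by the same miRNAs in every library.

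Next came miR-148a-3p with 6.43%, 7.51% and 6.71%, let-7f-5p with 6.26%, 7.67% and 5.64%, and miR-194-5p with 6.04%, 4.39% and 5.74%. let-7g-5p had 4.15%, 4.01% and 3.80%, miR-7a-5p 3.26%, 2.69% and 2.72%, let-7i-5p 2.34%, 3.24% and 3.08%, and miR-200c-3p 3.15%, 2.87% and 2.38%. These 10 miRNAs together held 72.1% ± 1.25 of counts (SD, n = 3), and 9 of them were among the first 10 of every library.

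The ranks below were closer together. miR-378a-3p had 2.43% ± 0.418 (SD, n = 3 here and for the other shares of this paragraph), miR-26a-5p 2.15% ± 0.216, miR-30d-5p 1.95% ± 0.282, let-7a-5p 1.60% ± 0.142 and let-7c-5p 1.43% ± 0.0959. miR-191-5p had 1.28% ± 0.355, miR-27b-3p 1.27% ± 0.330, miR-200a-3p 1.19% ± 0.265, miR-183-5p 1.11% ± 0.111 and miR-103-3p 0.968% ± 0.283. In all, 19 rows had a mean of 1% or more and held 86.5% of counts, and 19 rows were among the first 20 of every library. A further 33 rows lay between 0.1 and 1% and held 10.7%, and 57 rows between 0.01 and 0.1% held 2.46%. The 90 rows under 0.01% held 0.334% together. The mean share of miR-192-5p was 828 times that of the median row, 0.0208%.

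Counts were therefore concentrated. The first 2 rows held 32.0% ± 1.88 of counts, the first 5 held 54.2% ± 2.09, the first 20 held 87.5% ± 1.04 and the first 50 held 97.0% ± 0.259 (SD, n = 3 each). Ranked within each library, 5 miRNAs were enough for 50% of counts in all 3 libraries. For 90% it took 24, 23 and 24 miRNAs, and for 99% it took 80, 78 and 83.

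**Figure D1:**
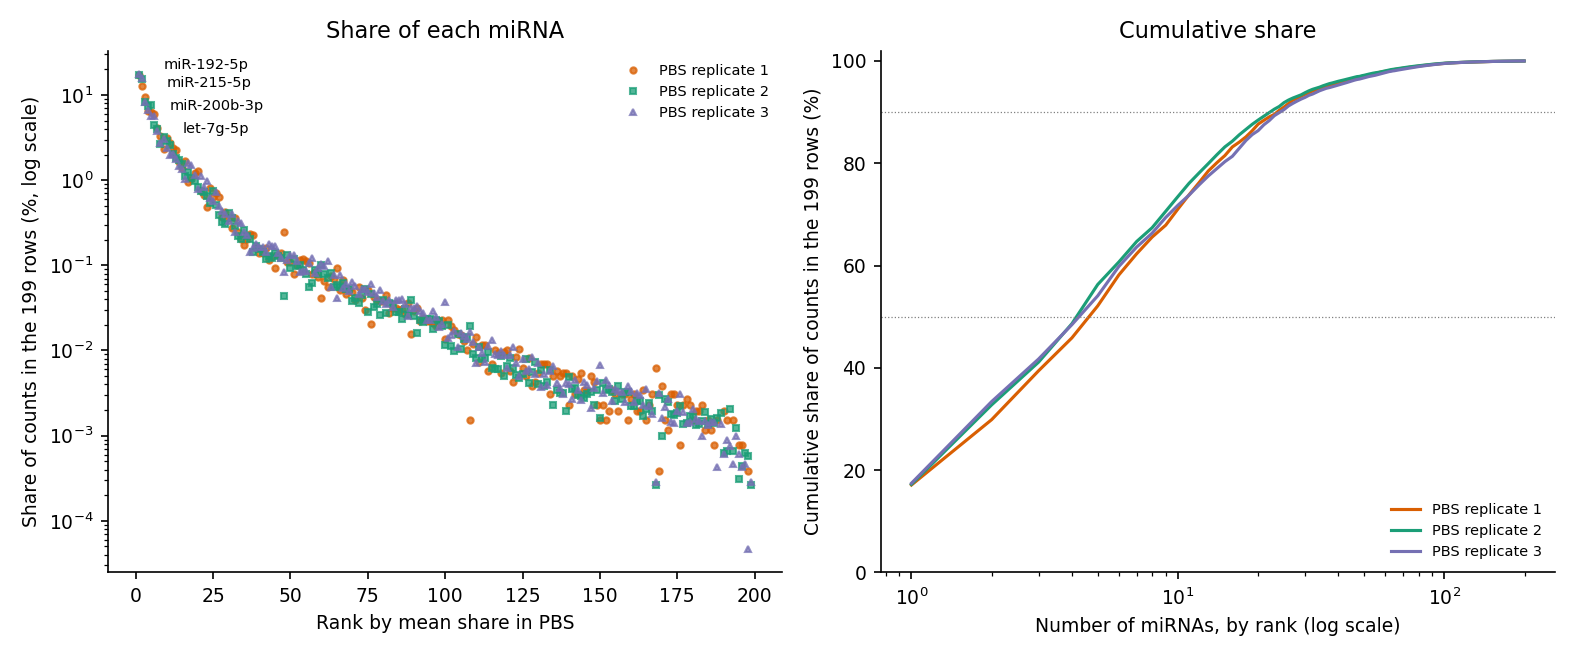
Left, the share of counts of each of the 199 miRNAs (%, log axis) by rank of the mean share, with a symbol for each PBS replicate; the 5 rows at 0 in replicate 1 have no symbol there. Right, the summed share (%) by number of miRNAs (log axis), with dotted lines at 50 and 90%; the curves of the 3 libraries run close together and reach 86.4 to 88.5% at rank 20.

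The order of neighbours in rank was compared within each library for the 20 highest rows and the one after each. With 3 libraries no exact sign-flip test could give a p under 0.25, so the order is described by libraries. Of 20 pairs of neighbours, 9 kept their order in all 3 libraries, 9 in 2 libraries and 2 in 1 library. The ranges of the shares were apart in 6 pairs. These were miR-192-5p over miR-215-5p (ratio 1.18 ± 0.138), miR-215-5p over miR-200b-3p (1.71 ± 0.320), miR-200b-3p over miR-148a-3p (1.28 ± 0.190), miR-194-5p over let-7g-5p (1.35 ± 0.226), let-7g-5p over miR-7a-5p (1.39 ± 0.109) and miR-30d-5p over let-7a-5p (1.22 ± 0.176, SD, n = 3 each). From miR-148a-3p to miR-194-5p, from miR-7a-5p to miR-30d-5p and from let-7a-5p downwards, the ranges of neighbours overlapped. The pairs that kept their order in only 1 library were miR-7a-5p with let-7i-5p, and miR-191-5p with miR-27b-3p.

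By seed, the 177 matched rows fell into 133 groups, of which 110 had a single member and 23 had 2 or more. The 67 rows in the larger groups held 82.0% of counts. The 6 highest groups of matched rows held 76.8% of counts on average, and their make-up differed, from a single row to 9. This ranking depends on which rows had a matched sequence. Counted by name, the miR-30 family held 3.15%, above the miR-7 group at 2.98%. The miR-378 family held 2.84% by name, against 2.52% for the miR-26 group. That order did not hold in replicate 3, where miR-378 had 2.33% and miR-26 2.45%.

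The seed UGACCUA, shared by miR-192-5p and miR-215-5p, held 29.9%, 32.8% and 33.4% of counts, the most of any group. The 2 miRNAs differ at 3 of 21 bases, none in the seed. miR-192-5p took 57.2%, 52.6% and 52.2% of the group, so that the balance was closest to even in replicates 2 and 3. They come from different chromosomes, miR-192 from a hairpin at chr19:6264844-6264932 on the plus strand of GRCm38, outside any annotated host gene, and miR-215 from chr1:185313581-185313692, where the noncoding gene 2010103J01Rik has an exon and Iars2, read from the opposite strand, has an intron.

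The let-7 seed GAGGUAG had 9 members, with 16.8%, 19.5% and 16.5% of counts. let-7 miRNAs are held back by Lin28 in embryonic cells and accumulate as cells differentiate, and the genes Hmga2 and Lin28 are among their known targets. let-7f-5p made up 36.9% ± 2.58 of the group, let-7g-5p 22.8% ± 2.03, let-7i-5p 16.4% ± 2.42, let-7a-5p 9.10% ± 0.436 and let-7c-5p 8.11% ± 0.218 (SD, n = 3 each). let-7d-5p followed with 3.67% ± 0.203, let-7b-5p with 1.98% ± 0.405 and miR-98-5p with 0.967% ± 0.104, while let-7e-5p took 0.0563% ± 0.0245 of the group (SD, n = 3 each). The order of the 9 members was the same in each library. let-7a-5p and let-7c-5p differ at 1 base, and let-7f-5p and let-7g-5p at 2, so the split of counts between such members depends on how reads with a mismatch were assigned. The row let-7j has a seed of its own, and is shown for that difference.
let-7i-5p: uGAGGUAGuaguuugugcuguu
let-7j: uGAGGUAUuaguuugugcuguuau
It held 8.65%, 6.78% and 7.45% of the count of let-7i-5p, from which it differs at 3 positions with the longer 3′ end counted, and had a mean share of 0.217% ± 0.0139 (SD, n = 3). Counted with let-7 by name, it brought the family to 17.8% ± 1.64.

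The seed AAUACUG of miR-200b-3p, miR-200c-3p and miR-429-3p held 12.9%, 11.4% and 11.01% of counts. The miR-200 family keeps epithelial cells epithelial by repressing Zeb1 and Zeb2. miR-200b-3p made up 74.2% ± 1.22 of the group, miR-200c-3p 23.7% ± 1.85 and miR-429-3p 2.06% ± 0.687 (SD, n = 3 each). The other miR-200 seed, AACACUG of miR-200a-3p and miR-141-3p, held 1.06%, 1.09% and 1.54%. Here miR-200a-3p was the main member, and miR-141-3p amounted to 3.45% ± 0.570 of its count (SD, n = 3).

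The seed CAGUGCA held 6.57%, 7.64% and 6.89% of counts, of which 97.8% ± 0.445 was miR-148a-3p, 1.99% ± 0.427 miR-148b-3p and 0.196% ± 0.0181 miR-152-3p (SD, n = 3 each). All of these are known to repress the DNA methyltransferase Dnmt1. miR-148a comes from a hairpin at chr6:51269812-51269910 on the minus strand, with no annotated host gene. miR-194-5p was the sole member of the seed GUAACAG, with 5.39% ± 0.877 (SD, n = 3). The seed GGAAGAC held 3.37%, 2.77% and 2.80%, of which miR-7a-5p made up 96.9% ± 0.269 and miR-7b-5p 3.08% ± 0.269 (SD, n = 3 each). miR-7 is abundant in hormone-secreting cells of the pancreas and gut.

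Below these, miR-26a-5p and miR-26b-5p held 2.52% ± 0.214, miR-27b-3p and miR-27a-3p 1.41% ± 0.369, and the 6 members of the miR-17 seed AAAGUGC 1.33% ± 0.229 (SD, n = 3 each). The miR-30 seed GUAAACA held 1.17% ± 0.263 over its 3 matched members, and the 5 rows named miR-30, with miR-30d-5p and miR-30b-5p counted, held 3.15% ± 0.531 (SD, n = 3 each). The 4 rows named miR-378 held 2.84% ± 0.446 (SD, n = 3). In this family miR-378c had 13.0%, 16.1% and 16.7% of the count of miR-378a-3p.

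**Figure D2:**
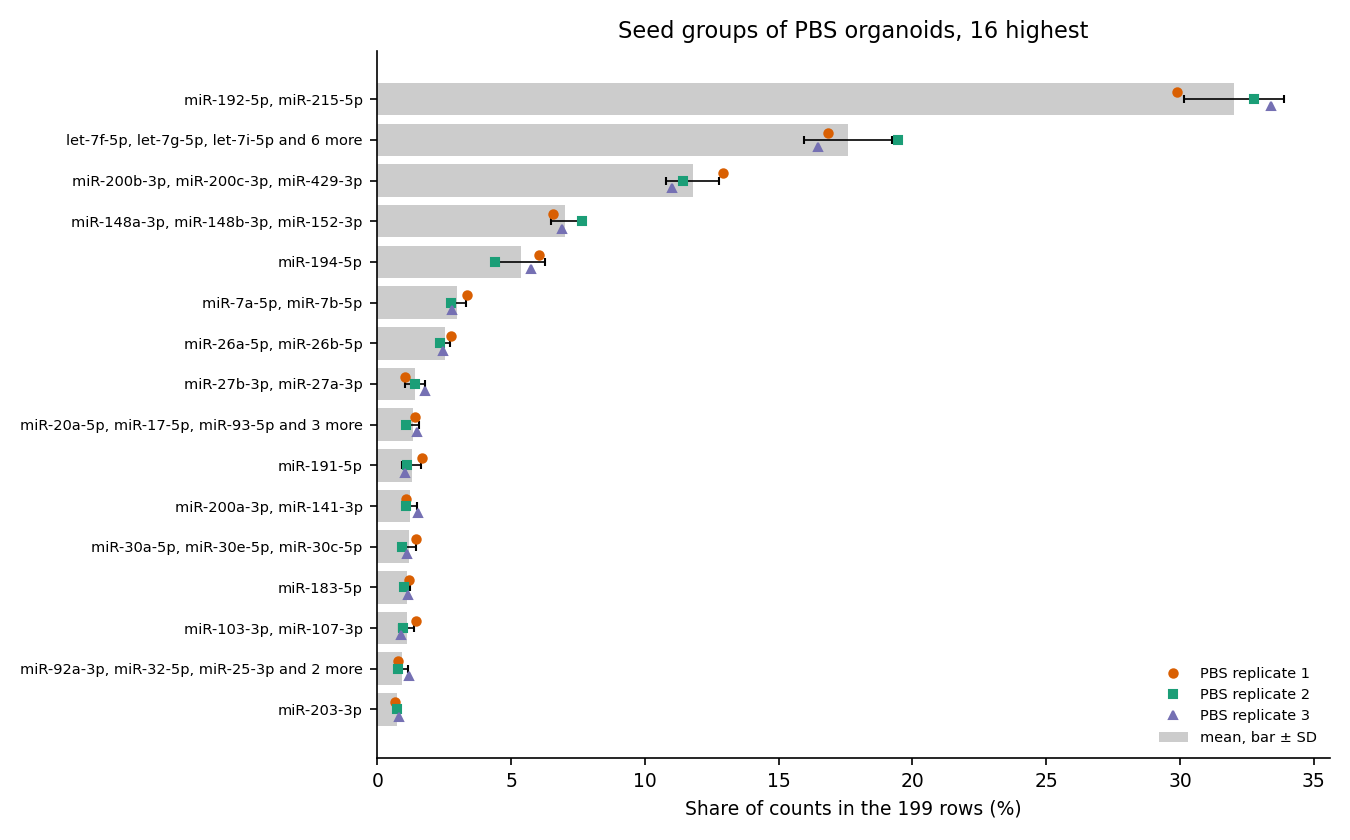
Share of counts (%) of the 16 highest seed groups, named by their members in order of share; grey bars are means of the 3 PBS libraries, whiskers SD and symbols single libraries. The group of miR-192-5p and miR-215-5p stands at 32.0% and the let-7 group at 17.6%, and the groups after the first 6 start at 2.52%. Rows without a matched sequence, among them miR-30d-5p and miR-378a-3p, are in no group.

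The first bases of the matched rows were uneven. U began 81 of the 177 matched sequences (45.8%), which held 58.6% ± 1.26 of the counts of the matched rows (SD, n = 3). On the same base, A began 41 rows with 19.0% of counts, C 40 rows with 21.4% and G 15 rows with 0.957%. Of the 18 matched rows among the 20 highest, 14 began with U (77.8%), against 67 of the other 159 matched rows (42.1%). The median GC content was 40.9% in the 18 and 47.8% in the 159. The share of C came mostly from miR-192-5p, which begins with C, whereas miR-215-5p begins with A. Argonaute is known to bind a 5′ U or A more tightly than a 5′ C or G, and the part of that preference in these shares was not tested.

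Shares of miRNAs that mark cell types were set beside the labelled cell type, intestinal epithelium. The lists were chosen with earlier results known, and many listed markers are not among the rows. The shares therefore describe the libraries and are no check of the label. miR-192-5p, miR-215-5p and miR-194-5p of mature gut epithelium summed to between 35.9 and 39.1% of counts, and the 5 miRNAs of the miR-200 family to between 12.5 and 14.0%. Of the markers of hormone-secreting cells, miR-7a-5p, miR-375-3p and miR-7b-5p summed to 3.42 to 3.86%. miR-375-3p, which acts in islets and in secretory cells of the gut, had 0.484%, 0.644% and 0.968% of counts, lowest in replicate 1 and highest in replicate 3. The 11 miRNAs of the miR-17-92 cluster and its copies, which are raised in cycling cells, were all present and summed to 1.91 to 2.81%, led by miR-92a-3p (0.871% ± 0.225), miR-20a-5p (0.643% ± 0.119), miR-17-5p (0.375% ± 0.0597) and miR-93-5p (0.268% ± 0.0572, SD, n = 3 each). miR-203-3p, best known from skin, had 0.669%, 0.735% and 0.823%, and its companion among stratified epithelial markers, miR-205-5p, 0.00532% ± 0.00157 (SD, n = 3).

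Markers of other cells were low or not among the 199 rows. None of 9 miRNAs of fibroblasts and smooth muscle, of 4 miRNAs of red blood cells or of 3 miRNAs of the pancreas was among the rows analysed here, so their levels are not known. Of 7 leukocyte miRNAs 3 were among the rows, miR-342-3p, miR-146a-5p and miR-155-5p, and summed to between 0.0158 and 0.0185%. Of 2 miRNAs of endothelium only miR-126a-3p was among the rows, with 0.01001%, 0.0145% and 0.0136%. Of 5 miRNAs of striated muscle only miR-1a-3p was, with 0.00231%, 0.00414% and 0.00315%. The levels of the other listed leukocyte, endothelial and muscle miRNAs are not known. miR-122-5p, the main miRNA of hepatocytes, was found with 5, 14 and 13 counts. Of 6 neuronal markers the 2 present, miR-128-3p and miR-9-5p, summed to 0.0470 to 0.104%. Most of it was miR-128-3p, which many other tissues also make, and the levels of the other neuronal markers are not known. miR-9-5p had 16 counts in replicate 1 and 6 in each of the deeper libraries. Its share was 0.00616% in replicate 1 (95% Wilson interval 0.00379 to 0.010), against 0.000267% (0.000122 to 0.000582) in replicate 2 and 0.000282% (0.000129 to 0.000615) in replicate 3.

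miRNAs whose hairpins lie close together on a strand are usually transcribed as a single RNA, so their mature levels can be set side by side. Hairpins within 10 kb of each other on a strand of GRCm38 formed 26 clusters, and the 84 rows with a hairpin in a cluster held 69.4% ± 0.825 of counts (SD, n = 3). Hairpins with an arm that another locus also makes were left out, which left 14 clusters with 2 or more hairpins, and there the most counted arm of the highest hairpin was set over that of the lowest. The ratio had a median of 14.2, ran from 1.42 to 572 and was over 10 in every library in 7 clusters. The median was 24.0, with 8 such clusters, where a hairpin was kept if its most counted arm came from a single locus. That choice, made after seeing the data, changed the lowest member of a single cluster, from miR-23a-3p to miR-24-2-5p, which had 9, 73 and 54 counts.

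The 2 miR-200 clusters were both uneven. At chr4:156053905-156055750 on the minus strand, within introns of Ttll10 and the transcript Gm13648 apart from miR-429, which lies in an exon of Gm13648, miR-200b-3p exceeded miR-429-3p 47.1-, 41.3- and 26.5-fold. miR-200a-3p, between them in position, was also between them in level. At chr6:124717914-124718390 on the minus strand, miR-200c-3p exceeded miR-141-3p 75.2-, 88.0- and 50.3-fold. In both clusters the hairpin nearest the 5′ end of the transcript had the highest count, and in both the ratio was lowest in replicate 3.

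In the miR-17-92 cluster, at chr14:115043671-115044506 on the plus strand in an exon of Mir17hg, miR-20a-5p exceeded miR-18a-5p 101-, 81.5- and 54.0-fold. miR-18a-5p rested on 18, 140 and 285 counts. In the related cluster of Mcm7 on chromosome 5, miR-93-5p exceeded miR-25-3p 29.3-, 43.4- and 46.9-fold. miR-183-5p, of a cluster best known from sensory cells, exceeded miR-182-5p 26.9-, 35.8- and 32.4-fold, with miR-96-5p between them at 0.133% ± 0.00452 (SD, n = 3). In the clusters of miR-23 and miR-27, miR-27b-3p exceeded miR-23b-3p 4.17-, 8.74- and 9.95-fold and miR-27a-3p exceeded miR-23a-3p 7.74-, 15.3- and 13.3-fold, and miR-24-2-5p 26.7-, 43.4- and 66.7-fold. miR-24-3p, which both of those clusters encode, had 0.00303% ± 0.000977 of counts (SD, n = 3), below both miR-27 miRNAs in every library. The highest ratio, miR-191-5p over miR-425-3p, was 1098, 344 and 274, and in replicate 1 it rested on 4 counts of miR-425-3p. The most even cluster was that of miR-99b, let-7e and miR-125a, where let-7e-5p over miR-99b-5p was 2.47, 0.995 and 0.806, so that their order was not the same in all libraries.

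**Figure D3:**
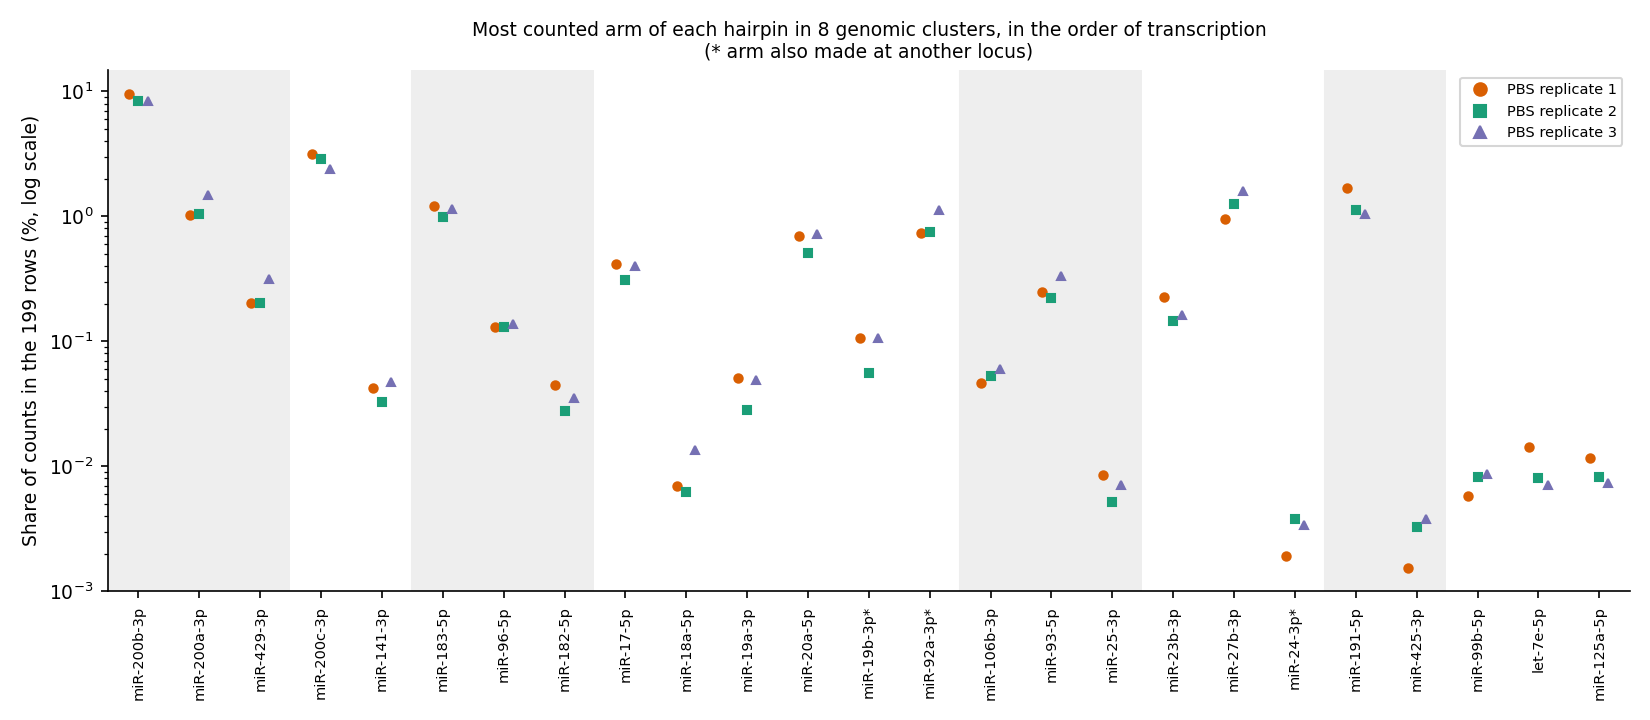
Share of counts (%, log axis) of the most counted arm of each hairpin in 8 genomic clusters, shaded in turn and drawn in the order of transcription, with a symbol for each PBS replicate. miR-200b-3p and miR-429-3p are 26.5- to 47.1-fold apart, while miR-99b-5p, let-7e-5p and miR-125a-5p lie together near 0.01%; an asterisk marks an arm that another locus also makes.

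miR-194-5p comes from a hairpin beside miR-215 on chromosome 1 and another beside miR-192 on chromosome 19, and its reads do not tell them apart. The 3p arms do. They are shown because they differ between the loci, with the seed in capitals.
miR-194-1-3p: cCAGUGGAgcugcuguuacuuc
miR-194-2-3p: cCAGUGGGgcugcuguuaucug
miR-194-1-3p had 134, 1199 and 1061 counts and miR-194-2-3p 106, 998 and 1110. The first thus amounted to 126%, 120% and 95.6% of the second, and their order was not the same in all libraries. Each was about 1% of miR-194-5p, 0.979% ± 0.203 for miR-194-1-3p and 0.865% ± 0.172 for miR-194-2-3p (SD, n = 3 each).

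Arm use was compared in the 34 hairpins that had both arms among the rows and a mean of 30 or more counts over both arms. None of their arms was matched to more than a single locus. Arms without a matched sequence, such as miR-378a-3p and miR-151-5p, could not be checked for this. The 5p share is the 5p count as a percent of 5p and 3p counts, and it does not depend on how libraries are scaled. The 5p arm held over 50% in all 3 libraries in 16 hairpins and the 3p arm in 15, and 3 had no such arm. Over the whole table, the 94 rows named 5p held 69.4% ± 0.229 of counts and the 82 rows named 3p held 29.7% ± 0.262 (SD, n = 3 each). The weaker arm was under 5% in 14 hairpins and 20% or more in 9, with a median of 8.79%. Hairpins with a single arm among the rows, such as miR-192 and miR-148a, could not enter. These figures therefore describe the 34 hairpins and not arm use in the organoids at large.

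Among the hairpins with the most counts, use was one-sided. The 5p share was 99.04% ± 0.248 for miR-215, 99.85% ± 0.0298 for miR-191 and 99.75% ± 0.0379 for miR-183 (SD, n = 3 each). It was 0.698% ± 0.0450 for miR-200b, 0.142% ± 0.0481 for miR-378a and 0.590% ± 0.426 for miR-27b (SD, n = 3 each), which use the 3p arm. let-7d (89.0% ± 4.72), miR-30a (93.2% ± 2.004) and miR-30e (88.8% ± 3.08) kept more of the 3p arm, and miR-200a had 9.36% ± 2.05 of its counts on 5p (SD, n = 3 each). For let-7d the 5p share was 92.0%, 91.4% and 83.5%, lowest in replicate 3.

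A few hairpins yielded both arms. The 5p share of miR-106b was 39.8%, 30.7% and 39.9%, that of miR-28a 36.9%, 35.8% and 32.6%, and that of miR-25 38.9%, 38.3% and 30.4%, all with more 3p in every library. miR-106b lies in an intron and miR-25 in an exon of Mcm7, to either side of miR-93. In the other direction, the 5p share was 76.9% ± 5.61 in miR-18a, 79.2% ± 4.50 in miR-15b, 81.1% ± 10.8 in miR-30b, 83.1% ± 10.49 in miR-802 and 68.5% ± 0.348 in miR-671, and miR-423 had 16.1% ± 3.86 (SD, n = 3 each). miR-802 is made in gut, liver and pancreas.

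The hairpins without a main arm were miR-151, miR-1981 and miR-425, and in each of them the 5p share of replicate 1 was the one at or across the 50% line. miR-151 had 58.5% (95% Wilson interval 55.6 to 61.4) of its counts on 5p in replicate 1, 14.2% (13.35 to 15) in replicate 2 and 25.6% (24.6 to 26.6) in replicate 3. The counts of miR-151-5p were 642, 972 and 1781 and those of miR-151-3p 455, 5895 and 5179. These intervals, which count the sampling of reads alone, do not overlap. miR-1981 had 50% in replicate 1, on 4 counts of each arm (21.5 to 78.5), against 92.3% (89.5 to 94.3) and 88.8% (85.3 to 91.6) in replicates 2 and 3. miR-425 also had 4 counts of each arm in replicate 1, and 45.5% and 36.2% in the others. Without replicate 1 no hairpin lacked a main arm.

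In 26 hairpins with a main arm, both arms had a matched sequence. The main arm began with U in 14 of them and the weaker arm in 5, whereas C began 6 main and 8 weaker arms.

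**Figure D4:**
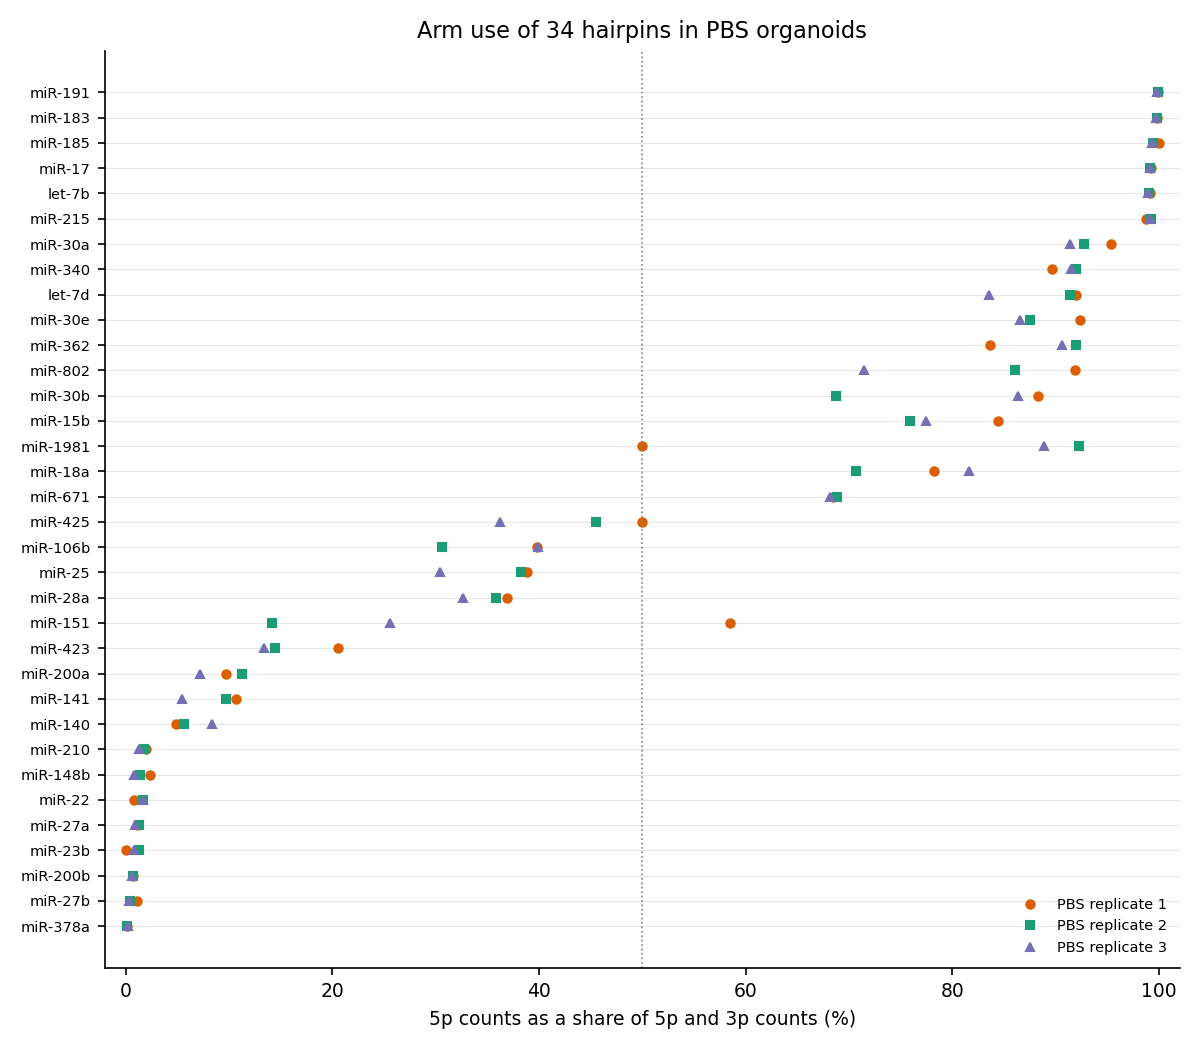
The 5p count as a percent of 5p and 3p counts in 34 hairpins, sorted by the mean of the 3 PBS libraries, with a symbol for each library and a dotted line at 50%. Most hairpins lie near either end, miR-106b, miR-28a and miR-25 lie between 30.4 and 39.9%, and the symbols of miR-151 spread from 14.2 to 58.5%.

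Some rows are close in sequence, and a read with a mismatch could be counted under more than one of them. miR-107-3p amounted to 13.7% ± 2.55 of miR-103-3p, from which it differs at 1 base, miR-30e-5p to 77.4% ± 4.08 of miR-30a-5p, also 1 base apart, and let-7c-5p to 89.3% ± 3.37 of let-7a-5p (SD, n = 3 each). The 3p arms let-7c-2-3p and let-7a-1-3p have the same sequence and held 57, 522 and 484 counts each.

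The 3 libraries differed by more than counting. Over the 143 rows with 10 or more counts in every library, the shares had a median coefficient of variation (CV) of 20.8%, and 134 of the 143 had a CV above what Poisson counting gives. The biological CV, which edgeR estimates as the spread left after counting error, was 23.4% over these rows. No pair of libraries agreed within sampling noise, with a chi-square per degree of freedom of 74.98 between replicates 1 and 2, 77.6 between 1 and 3 and 213 between 2 and 3 (142 degrees of freedom each), where the last pair is the deepest. Pearson correlations of log2 shares across the 143 miRNAs were 0.984, 0.982 and 0.991 for those pairs. They describe these libraries only, since miRNAs are not independent and the range of levels is wide. Shares differed more than 2-fold in 9, 14 and 5 rows.

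The spread fell with depth. In rows with a mean of 10 to 100 counts the median CV was 30.9%, against 23.5% from counting alone, and in rows of 100 to 1000 counts it was 21.5% against 8.39%. In rows of 1000 to 10000 counts it was 18.4% against 3.44%, and in the 24 rows of 10000 or more it was 14.0% against 0.881%. The observed CV thus lay closest to counting error in the rarer rows and well above it in the abundant ones. The 7 rows under 10 counts had a median CV of 79.8%, against 53.9%.

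Among the 52 rows with a share of 0.1% or more, miR-192-5p varied least, with a CV of 1.003%, followed by miR-96-5p (3.39%), let-7g-5p (4.38%), miR-98-5p (5.68%) and let-7j (6.40%). For miR-96-5p this was no more than counting error, 3.45%. The largest CVs were those of miR-151-5p (86.6%), miR-375-3p (35.3%), miR-103-3p (29.2%), miR-27a-3p (29.0%) and miR-191-5p (27.7%). miR-103-3p had 1.29%, 0.832% and 0.778% of counts and miR-191-5p 1.69%, 1.12% and 1.04%, both highest in replicate 1. miR-27a-3p had 0.0924%, 0.141% and 0.169%, and, like miR-375-3p, was lowest in replicate 1. miR-151-5p had 0.247%, 0.0432% and 0.0837%, 5.72-fold between the highest and the lowest library. Of the 20 highest rows, 11 had their highest share in replicate 1, 5 in replicate 2 and 4 in replicate 3. In 11 the lowest share was in replicate 3, in 6 in replicate 1 and in 3 in replicate 2. The 143 rows with 10 or more counts in every library did not share this pattern. Their highest share was in replicate 1 in 59 rows, in replicate 2 in 21 and in replicate 3 in 63. Their lowest was in replicate 1 in 48 rows, in replicate 2 in 59 and in replicate 3 in 36.

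**Figure D5:**
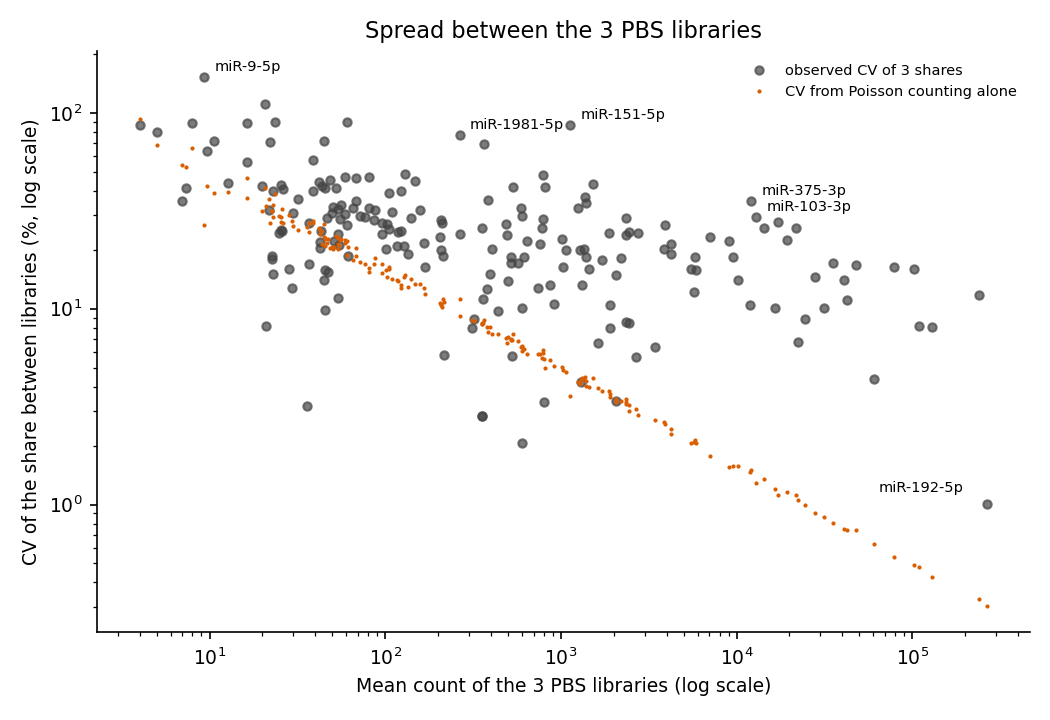
Coefficient of variation of the share between the 3 PBS libraries (%, log axis) against the mean count (log axis), a grey point for each of the 199 miRNAs and an orange dot for the CV that Poisson counting would give it. miR-192-5p is lowest at 1.003%, and miR-151-5p stands at 86.6%, far above its counting error of 3.57%.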

How the data were processed

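The labels place 3 libraries under PBS and 3 under BMP4, and only the PBS libraries were analysed. Per the methods of the study, RNA kept with a kit for small RNA was ligated to adaptors, amplified and size-selected. The authors trimmed reads with bbmap, dropped inserts outside the size range of miRNAs, mapped the rest with miRDeep2 and counted reads per mature miRNA of miRBase with its quantifier. The deposited values are raw counts without normalization. The submitters' notes also name edgeR. The genome build, the miRBase release and the rule that kept 199 rows were not given in the sources used here, so a share is a share of the counts in these rows. Ligation and PCR favour some sequences, so a share of reads is not a share of molecules, and default settings let a read be counted under similar miRNAs.

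Shares, cumulative shares, ratios and 95% Wilson intervals were computed with Python 3.11.15, pandas 2.3.3 and scipy 1.17.1, and drawn with matplotlib 3.10.9. Mature sequences were matched by name to RefSeq (GRCm38.p6), and hairpins to GENCODE annotation of GRCm38. Dispersion was estimated with edgeR 4.0.16 in R 4.3.3 under a design with an intercept only, over rows with 10 or more counts in every library, after a check on simulated data. DESeq2 1.42.0 gave alternative size factors. Arm ratios used a pseudocount of 0.5. No groups were compared and no hypothesis was tested. SDs are over 3 libraries.

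The members and lists were chosen with earlier results of these data known. The text names the 20 highest miRNAs, members of 0.1% or more in the 6 highest seed groups, the 10 most counted hairpins, up to 10 hairpins with the largest weaker arm, the 5 largest and 5 smallest CVs among miRNAs of 0.1% or more, and up to 4 members of each list, 76 rows in all. Other rows, clusters and pairs of similar rows were chosen after their values were seen. Alternatives were leaving out each library, pooled counts, other count minimums, a seed of bases 2 to 7, another pseudocount, a limit of 80% for the main arm, identical rows counted once, another rule for hairpins in clusters and other scalings.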

Additional observations from a re-analysis of the deposited data

How the results depend on the processing

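Over 34 results, 185 of 190 values under an alternative stayed within the SD between libraries or, for counts, within 1.5-fold. Leaving out a library cannot move a mean of 3 libraries by a full SD, so for means those values could not fall outside. Some other alternatives left a value as it was, as a seed of bases 2 to 7 did for miR-192 and miR-215. The tally is therefore no measure of robustness. The exceptions concern families, arms and clusters. Counted by name, with rows that had no matched sequence, the miR-30 family held 3.15% in place of 1.17%, a choice made after seeing the data. With a limit of 80% for the main arm, 12 hairpins in place of 3 had no main arm, and with each library left out in turn that number ran from 0 to 3, with 0 when PBS replicate 1 was left out. With a minimum of 100 counts over both arms the median absolute log2 ratio of the arms was 3.70 in place of 3.51. Where only the most counted arm of a hairpin had to come from a single locus, the median ratio within clusters was 24.0 in place of 14.2, also a choice made after seeing the data. Leaving out single libraries, the share of the first 10 miRNAs ran from 71.4 to 72.6%, that of the miR-192 and miR-215 seed from 31.3 to 33.1%, that of let-7 from 16.7 to 18.2%, the biological CV from 21.4 to 24.4% and the ratio of let-7e-5p over miR-99b-5p from 0.900 to 1.73. The biological CV was 22.3% with TMM scaling, 22.1% with DESeq2 size factors and 22.0% without miR-151-5p. No paired analysis was possible because only PBS libraries were described and no group was compared with another. The depth of PBS replicate 1 limits rows under about 0.01%, and miRNAs outside the 199 rows were not analysed here.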

Other observations

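Some miRNAs that are abundant in many tissues stood low in these rows. They were chosen after their values were seen. miR-21a-5p, which rises in injured and cancerous epithelium, was at rank 61 with 0.0662%, 0.0790% and 0.0987% of counts. miR-16-5p, a brake on the cell cycle, was at rank 64 with 0.0693%, 0.0560% and 0.0779%. miR-31-5p, known to act in intestinal stem cells, stood higher, at rank 32 with 0.361%, 0.292% and 0.247%. miR-22-3p had 0.141%, 0.142% and 0.163%, and miR-210-3p, which hypoxia induces, 0.115%, 0.130% and 0.178%. miR-29a-3p, which represses collagen genes, had 0.0801%, 0.0614% and 0.120%, and miR-10a-5p, from the Hoxb cluster, 0.0724%, 0.0792% and 0.0935%. All of these were above the floor of 3 counts in every library.

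Further down the ranking, at rank 108, the row miR-1981-5p was at 4 counts in replicate 1, against 441 and 350 in the others, a 12.7-fold range of shares. The rows at 0 in replicate 1 were miR-23b-5p (0, 42 and 29 counts), miR-224-5p (0, 46 and 16), miR-185-3p (0, 28 and 21), miR-3470b (0, 14 and 10) and miR-3470a (0, 6 and 6). In that library the floor of 3 counts is a share of 0.00115%, and the 95% Wilson interval of a count of 0 reaches 0.00148%.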
